A study of Homo sapiens with 4 samples.

Results

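Insulin-like growth factors are secreted peptide hormones that drive growth and survival, and a family of binding proteins holds them outside the cell. The family examined here has 10 members of 60675 gene rows in the deposited table. They are the ligands IGF1 and IGF2, the receptor IGF2R and the binding proteins IGFBP1 to IGFBP7, taken by gene name, and each name matched 1 row. RNA was sequenced from HT1080, a human fibrosarcoma cell line, in which KDAC8 (HDAC8), a lysine deacetylase, was knocked out. The series holds 1 group of 4 replicate libraries from cells kept in minimal essential medium with 10% fetal bovine serum, and no control group was analysed here. The labels do not say how the knockout was made, whether the cells are a single clone, or whether replicates were separate cultures, so the spread between libraries may be technical. What follows gives levels, ratios of genes inside each library, and library-to-library spread. The p-values cover only that spread and those ratios. No effect of the knockout can be given.

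IGF1 and IGF2 signal through the receptor kinase IGF1R, and in part through the insulin receptor. IGF2R is the cation-independent mannose-6-phosphate receptor, which has no kinase domain, carries enzymes to lysosomes and clears IGF2 from the surroundings. IGFBP1 to IGFBP6 bind the ligands tightly and either withhold or deliver them, while IGFBP7 binds them weakly. Proteases such as PAPPA cut binding proteins and so free the ligand.

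Total counts were 39454210 to 45828807 per library, and HDAC8 had 80 to 107 counts (1.98 to 2.53 CPM), over the detection threshold of 1 CPM in every library. These counts do not test the knockout, since the labels do not say how it was made. CPM is the count per 1000000 of the effective library size. CPM per kilobase divides it by annotated exonic length and is the scale for comparing genes. Errors are SD over the 4 libraries (n = 4). Of 10 mesenchymal markers, 6 reached 1 CPM in all libraries, led by VIM at 4701 ± 282.6 CPM. COL1A2, COL3A1, THY1 and S100A4 did not. Of 18 markers of epithelial, haematopoietic, endothelial, liver and muscle cells, 3 did (KRT8, KRT18 and MYH3). EPCAM, CDH1, KRT5 and MYOD1 had 0 counts. Liver supplies circulating IGF1 and IGFBP1, and its markers ALB, APOA1 and TTR summed to at most 0.0946 CPM.

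HT1080 cells with the KDAC8 knockout had abundant RNA of the receptor IGF2R and of the binding proteins IGFBP7 and IGFBP6, and almost none of either ligand. Of the 10 members, 3 reached 1 CPM in all 4 libraries, a share to be read against 58.7% of protein-coding genes. IGF1 and IGFBP5 had 0 counts in every library, as did 15.1% of protein-coding genes. IGFBP1 had counts in some libraries only. Across the 4 libraries the members held 78264 counts, of which IGF2R took 79.98% ± 1.47, IGFBP7 15.3% ± 0.788 and IGFBP6 4.44% ± 0.858 on average. A share of counts favours long transcripts such as that of IGF2R.

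**Figure D1:**
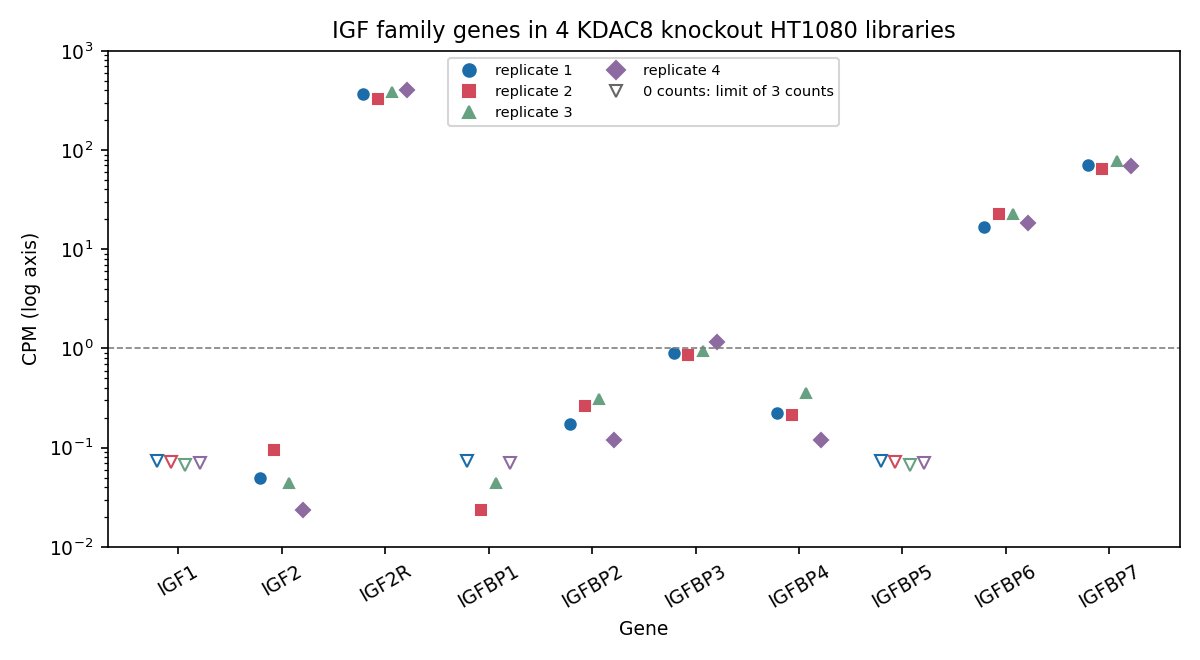
CPM (log axis) of the 10 family members in each of the 4 knockout libraries; open triangles mark libraries with 0 counts, at the level 3 counts would give, and the dashed line is 1 CPM. IGF2R, IGFBP7 and IGFBP6 lie above 16 CPM in every library, IGFBP3 sits at the line, and the other members lie below it.

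Both ligands were at or near 0. IGF2 (ENSG00000167244), the fetal growth factor of an imprinted locus, is annotated as protein-coding on chromosome 11 (GRCh38, 2129112 to 2149603, reverse strand). The 4 libraries held 2, 4, 2 and 1 of its counts in replicate order. That is 0.0531 ± 0.0301 CPM, with an exact Poisson 95% interval of 4.12 to 17.1 for the sum of 9 counts, which covers counting error only. The neighbouring insulin gene INS, the readthrough INS-IGF2, the antisense IGF2-AS and MIR483, a microRNA gene inside IGF2, had 0 counts in all libraries. H19, the noncoding RNA of the same imprinted domain, had 0, 0, 1 and 1 counts. All of these rows were near the floor of 3 counts, so no order among them can be read.

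IGF1, the main mediator of growth hormone action (ENSG00000017427, chromosome 12, 102395874 to 102481744, reverse strand), had 0 counts in replicates 1 to 4. A count of 0 allows up to 0.0742 CPM in the shallowest library and up to 0.0176 CPM over the 4 libraries together. Of the annotated exonic length of IGF1, 82.4%, or 6693 of 8122 bases, also lies in exons of HELLPAR, a long noncoding RNA on the opposite strand. HELLPAR had 10609, 9344, 11188 and 20155 counts. Whether counting used strand is not given in the sources used here, and without it, reads from the shared bases cannot be told apart.

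IGF2R (ENSG00000197081, chromosome 6, 159969099 to 160113507, forward strand) was the member with the most counts, at 14750, 13725, 17223 and 16915 in replicates 1 to 4. Scaled for depth, its level was 364.8, 325.9, 380.2 and 400.1 CPM, averaging 367.8 ± 31.4. The lowest library was replicate 2 and the highest replicate 4, a range of 1.23 times. Per kilobase IGF2R stood at 20.6 ± 1.76 CPM, above 84.1% of the 11566 protein-coding genes detected. AIRN, which in mouse is the antisense RNA tied to Igf2r imprinting, had 19, 16, 20 and 19 counts and shares no annotated exon with IGF2R. The pseudogene AL353625.1 inside an IGF2R intron had 66, 79, 93 and 145 counts, highest in replicate 4.

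The start regions of the members that have one in the RefSeq table (7 of 10, GRCh38.p14) differ in their content of CpG dinucleotides, the sites of DNA methylation. Here 4 windows are shown because together they pair high and low RNA with rich and poor CpG content. Each runs from 250 bases before to 50 bases after the annotated start, 5′ to 3′ on the gene's strand, with every CG in capitals.
IGF2R (chr6:159968832-159969131, plus strand): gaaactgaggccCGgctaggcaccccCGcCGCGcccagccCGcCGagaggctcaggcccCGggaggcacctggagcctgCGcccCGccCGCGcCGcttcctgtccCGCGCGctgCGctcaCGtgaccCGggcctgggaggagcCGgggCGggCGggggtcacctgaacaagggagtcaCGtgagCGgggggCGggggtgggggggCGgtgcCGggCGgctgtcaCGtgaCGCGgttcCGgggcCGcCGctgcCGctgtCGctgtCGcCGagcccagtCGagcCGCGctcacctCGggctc
IGFBP6 (chr12:53097417-53097716, plus strand): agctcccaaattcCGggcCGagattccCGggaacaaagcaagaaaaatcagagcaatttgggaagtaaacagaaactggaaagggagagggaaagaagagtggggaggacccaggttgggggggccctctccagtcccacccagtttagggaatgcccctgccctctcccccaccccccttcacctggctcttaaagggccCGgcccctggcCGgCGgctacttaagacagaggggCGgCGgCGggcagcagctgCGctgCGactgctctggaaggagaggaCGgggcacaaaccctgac
IGFBP4 (chr17:40443200-40443499, plus strand): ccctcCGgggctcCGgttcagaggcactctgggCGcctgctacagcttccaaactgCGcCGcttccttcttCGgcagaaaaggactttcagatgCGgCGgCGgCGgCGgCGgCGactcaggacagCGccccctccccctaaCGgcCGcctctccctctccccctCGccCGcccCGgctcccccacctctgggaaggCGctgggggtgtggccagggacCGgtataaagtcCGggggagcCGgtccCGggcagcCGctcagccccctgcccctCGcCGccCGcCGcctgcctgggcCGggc
IGF1 (chr12:102481698-102481997, minus strand): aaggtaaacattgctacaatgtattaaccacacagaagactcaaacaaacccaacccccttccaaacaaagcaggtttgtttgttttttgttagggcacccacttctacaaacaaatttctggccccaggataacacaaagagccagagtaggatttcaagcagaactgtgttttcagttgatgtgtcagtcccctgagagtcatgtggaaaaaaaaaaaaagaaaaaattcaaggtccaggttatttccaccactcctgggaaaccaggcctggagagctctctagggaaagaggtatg

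IGF2R combined a CpG-rich start with high RNA: its window held 41 CpG, an observed-over-expected ratio of 0.886, and 93.3% of the 35114 windows in the table held fewer. IGFBP6, the only other detected member with a window, combined a CpG-poor start with high RNA, at 12 CpG, a ratio of 0.422 and 15.0 CPM per kilobase. IGFBP4 was the reverse case, with 30 CpG, a ratio of 0.746 and only 0.103 CPM per kilobase. IGFBP3 held 36 CpG (ratio 0.867), and the richest of the IGFBP2 windows held 28 (ratio 0.825). By each gene's richest window, IGF1 and IGFBP5, both at 0 counts, had the fewest CpG. IGF1 had 0 CpG in the window shown and 1 in its other window, and IGFBP5 had 9 (ratio 0.347). IGF2, IGFBP1 and IGFBP7 have no window in the table.

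Over all 14401 protein-coding genes with a window and a row in the table, 79.0% of the 10301 genes with a ratio of 0.6 or more in their richest window were detected, against 20.95% of the 4100 genes below it. By that split, IGFBP2, IGFBP3 and IGFBP4 were on the rich side and not detected, and IGFBP6 was on the poor side and detected. Methylation was not measured, so the windows describe sequence only.

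**Figure D2:**
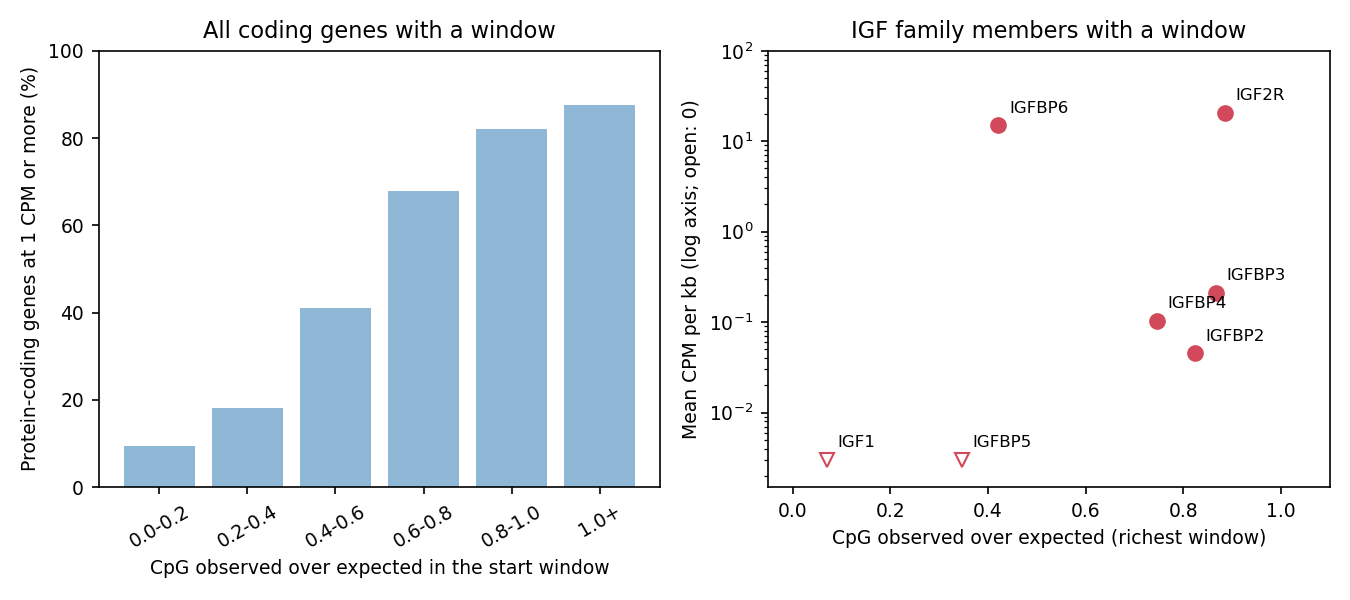
Left, bars give the percent of protein-coding genes that reached 1 CPM in every library, by the CpG observed-over-expected ratio of their richest start window, and run from 9.37% in the lowest class to 87.5% in the highest. Right, mean CPM per kilobase (log axis) of the 7 members with a window against the same ratio, with open triangles for members at 0 counts; IGFBP6 lies high at a ratio of 0.422, and IGFBP2, IGFBP3 and IGFBP4 lie low at ratios from 0.746 to 0.867.

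IGFBP7 (ENSG00000163453, chromosome 4, 57030773 to 57110385, reverse strand), a secreted matrix-associated protein, had the highest level per kilobase of the family. Its counts were 2823, 2705, 3488 and 2925 in replicates 1 to 4, or 69.8, 64.2, 77.0 and 69.2 CPM. Replicate 3 was highest and replicate 2 lowest. The mean was 70.1 ± 5.26 CPM and 36.3 ± 2.73 CPM per kilobase, above 92.2% of detected protein-coding genes. IGFBP7 shares 14.0% of its exonic length with POLR2B, an RNA polymerase subunit gene on the opposite strand that had 191.2 ± 2.56 CPM. The deposited IGFBP7 and POLR2B values are not whole. Their sums are whole in replicates 1, 3 and 4 (10704, 12141 and 10927) and not in replicate 2 (10695.48), and a division of reads between the rows was not tested. The antisense IGFBP7-AS1 had 1 count in replicate 1 and 0 in the others.

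IGFBP6 (ENSG00000167779, chromosome 12, 53097436 to 53102345, forward strand), which prefers IGF2 over IGF1, was the other expressed binding protein. It had 680, 965, 1029 and 784 counts in replicates 1 to 4, or 16.8, 22.9, 22.7 and 18.55 CPM. Replicates 2 and 3 stood together above replicates 4 and 1. The mean was 20.25 ± 3.05 CPM and 15.0 ± 2.26 CPM per kilobase, above 76.9% of detected protein-coding genes.

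IGFBP3 (ENSG00000146674, chromosome 7, 45912245 to 45921874, reverse strand), the main carrier of IGFs in blood and a known p53 target, lay at the edge of detection. It had 36, 36, 43 and 49 counts, or 0.890, 0.855, 0.949 and 1.16 CPM in replicates 1 to 4. Replicate 4 alone was above 1 CPM, so IGFBP3 counts as detected at a threshold of 0.5 CPM and not at 1 CPM. Its mean was 0.963 ± 0.136 CPM, and 0.211 ± 0.0298 CPM per kilobase.

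IGFBP4 and IGFBP2 were present at a few counts per library. IGFBP4 (ENSG00000141753, chromosome 17, 40443461 to 40457731, forward strand), an inhibitory binding protein and the main PAPPA substrate, had 9, 9, 16 and 5 counts, a mean of 0.227 ± 0.0965 CPM. IGFBP2 (ENSG00000115457, chromosome 2, 216632828 to 216664436, forward strand), a binding protein of fetal and many tumour tissues, had 7, 11, 14 and 5 counts, a mean of 0.215 ± 0.0858 CPM. Both were highest in replicate 3 and lowest in replicate 4. Neither varied between libraries in a chi-square test without the low-count filter (adjusted p = 0.264 for IGFBP4 and 0.365 for IGFBP2). IGFBP1 (ENSG00000146678, chromosome 7, 45888357 to 45893668, forward strand), which insulin regulates in liver, had 0, 1, 2 and 0 counts.

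IGFBP5 (ENSG00000115461, chromosome 2, 216672105 to 216695525, reverse strand), a binding protein of connective tissue, bone and muscle, had 0 counts in every library. Its group limit at a floor of 3 counts was 0.0176 CPM, the same as for IGF1. IGFBP5 and IGFBP2 lie 7668 bases apart on opposite strands, and IGFBP1 and IGFBP3 lie 18576 bases apart. Over the 4 libraries IGFBP2 (37 counts) was 16.7-fold higher per kilobase than IGFBP5 taken at a floor of 3 counts over the group. That value is 12.3-fold without division by length, and neither includes the counting error of IGFBP2. IGFBP3 (164 counts) was 19.8-fold higher per kilobase than IGFBP1 (3 counts), with an exact 95% interval of 6.65 to 96.85 for counting error. Without division by length it was 54.7-fold higher. The higher gene of each neighbouring pair was itself under 1 CPM on average.

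The 7 binding proteins summed to 49.0, 50.7, 57.2 and 49.96 CPM per kilobase in replicates 1 to 4, and IGFBP7 and IGFBP6 made up nearly all of it. IGFBP7 held 70.25% ± 3.47 of the sum and IGFBP6 29.04% ± 3.45. The share of IGFBP6 was lowest in replicate 1 (25.5%) and highest in replicate 2 (33.6%). IGFBP3 held 0.409% ± 0.0672, IGFBP4 0.197% ± 0.0709 and IGFBP2 0.0863% ± 0.030. As shares of counts, without division by length, IGFBP7 held 76.4% and IGFBP6 22.1%. On both scales the weakly binding member made up most of the binding protein RNA.

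Per kilobase the order from the top was IGFBP7, IGF2R, IGFBP6, IGFBP3, IGFBP4, IGFBP2, IGFBP1, IGF2, and then IGF1 and IGFBP5 at 0 counts. Of the 9 pairs compared within libraries, 6 were neighbours in this order among members with counts in every library. The gene named first was higher in 4 of 4 libraries for each of those 6, though the order came from the means of the same libraries, so that direction was largely set by the choice. An exact permutation test that flips signs (two-sided) gave p = 0.13 for every pair, before and after Benjamini-Hochberg adjustment over the 9. That is the smallest p 4 libraries allow, so the test cannot reach 0.05. IGFBP7 exceeded IGF2R by a log2 ratio of 0.82 ± 0.10, and IGF2R exceeded IGFBP6 by 0.46 ± 0.30 with a lowest library of 0.10. By counts alone, IGFBP7 lay below IGF2R, at a log2 ratio of -2.39, and IGF2R lay above IGFBP6 by 4.19.

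The wide step in the order lay between IGFBP6 and IGFBP3, a log2 ratio of 6.16 ± 0.34, or 71.3-fold with exonic lengths. It was 4.43 with median coding transcript lengths and 4.39 without length correction. Below it IGFBP3 exceeded IGFBP4 by 1.12 ± 0.79, IGFBP4 exceeded IGFBP2 by 1.18 ± 0.28, and IGFBP2 exceeded IGF2 by 2.65 ± 0.59 on the log2 scale. These smaller steps depended on the settings. IGFBP3 over IGFBP4 was 3.36 with median coding lengths. IGFBP4 over IGFBP2 was 0.07 without length correction (exact permutation p = 0.75) and -1.40, in the opposite order, with median coding lengths. IGFBP2 over IGF2 was 0.42 with a pseudocount of 0.1 CPM per kilobase and 4.03 with median coding lengths. IGFBP1 at 0.0103 ± 0.0129 and IGF2 at 0.0076 ± 0.0043 CPM per kilobase did not differ beyond their spread.

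The spread between libraries was larger than counting noise for the 3 expressed members. IGF2R, IGFBP6 and IGFBP7 varied in a chi-square test of homogeneity across all genes, with Benjamini-Hochberg adjusted p of 8.13e-72, 1.34e-11 and 2.02e-10. IGFBP3 did not (adjusted p = 0.549), and the other 6 members had too few counts to be tested. Among all genes tested, 59.2% varied, beside 3 of 4 members. Among genes at 10 CPM or more, where these 3 lie and IGFBP3 does not, 77.7% varied. A call of variation is thus common at their level. The ranges were small, at 1.36 times for IGFBP6, 1.23 for IGF2R and 1.199 for IGFBP7, against a median of 1.15 over genes at 10 CPM or more.

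No member passed a test against the spread of a typical gene, though the 3 expressed members lay above the median spread. The SD of log2 CPM was 0.221 for IGFBP6, 0.126 for IGF2R and 0.107 for IGFBP7. The median over genes at 10 CPM or more was 0.0916. With edgeR's common dispersion, a biological coefficient of variation of 0.0923, 0 of the 4 tested members varied (negative binomial deviance, adjusted p of 0.501 for IGFBP6 and 1 for the others), 0 passed an unadjusted 0.05, and 4.30% of all genes did vary. In replicate 2 the differences between libraries went with transcript length for IGF2R and IGFBP6 and not for IGFBP7. The median of 957 genes with transcripts of 8000 bases or more was lowest in replicate 2, at -0.07 log2 units from the gene's mean, as was IGF2R, whose longest transcript is 14044 bases. The median of 1335 genes with transcripts of 2000 bases or less was highest there, at 0.15, as was IGFBP6, with a longest transcript of 1177 bases. IGFBP7, at 1427 bases, was lowest there. Elsewhere the match was partial. IGF2R and the long genes were both highest in replicate 4. In replicate 3 IGF2R (380.2 CPM) was above its mean of 367.8 CPM while the long genes were at -0.02. IGFBP6 was nearly as high in replicate 3 (22.7 CPM) as in replicate 2 (22.9 CPM), while the short genes were at 0.04 in replicate 3. IGFBP6 was lowest in replicate 1, and the short genes in replicate 4, at -0.11. The part of transcript length in these differences was not tested.

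**Figure D3:**
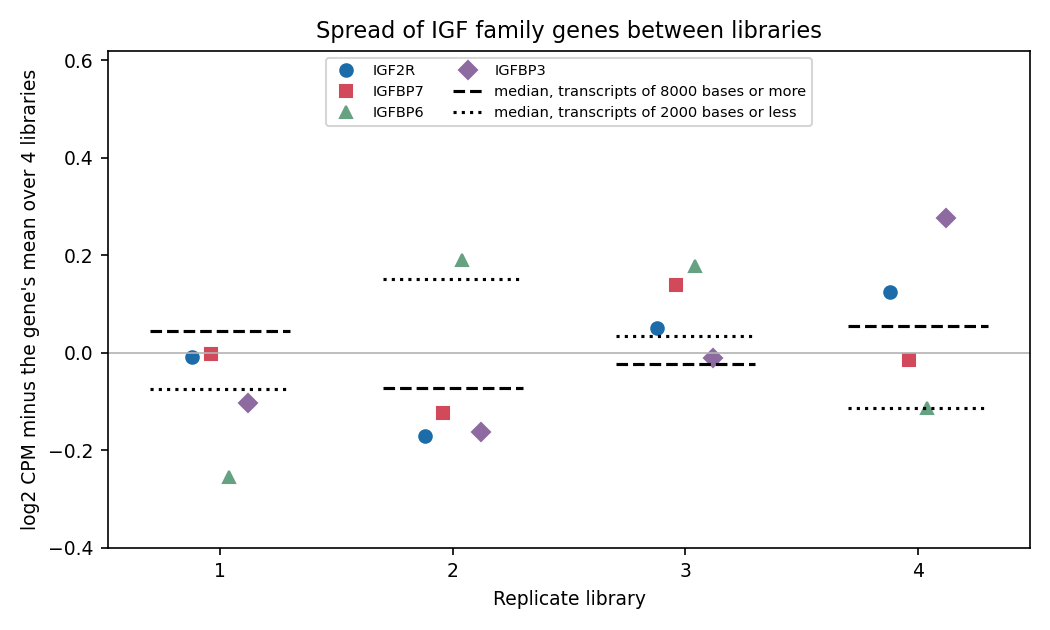
Points give log2 CPM minus the gene's mean over the 4 libraries for IGF2R, IGFBP7, IGFBP6 and IGFBP3 in each replicate; dashed and dotted marks give the median of long-transcript (957) and short-transcript (1335) genes. IGFBP6 and the short genes are highest in replicate 2, where IGF2R and the long genes are lowest.

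RNA of the signalling receptor IGF1R was present, while that of the insulin receptor was low. IGF1R, the kinase that transmits IGF signals, had 71.2, 59.65, 70.2 and 78.8 CPM in replicates 1 to 4, or 5.02 ± 0.565 CPM per kilobase. INSR, the insulin receptor and a dimer partner of IGF1R, had 11, 6, 22 and 15 counts, or 0.030 ± 0.0138 CPM per kilobase. IGF1R exceeded INSR by a log2 ratio of 7.51 ± 0.63, and IGF2R exceeded IGF1R by 2.04 ± 0.05, each in 4 of 4 libraries. With the pseudocount IGF1R over INSR was 5.30, and with median coding lengths IGF2R over IGF1R was 2.77. M6PR, the smaller cation-dependent mannose-6-phosphate receptor, stood at 72.4 ± 2.29 CPM per kilobase and above IGF2R in 4 of 4 libraries (log2 ratio of IGF2R to M6PR -1.82 ± 0.11, and -3.38 with median coding lengths). By counts IGF2R was the higher of these, at a log2 ratio of 0.42. LRP1, an endocytic receptor that also binds IGFBP3, had 8.31 ± 0.982 CPM per kilobase, and the orphan relative INSRR had 0 counts. The exact permutation p was 0.13 for each of these 3 pairs too.

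Of 91 pathway genes in 7 lists, 70 reached 1 CPM in all 4 libraries, or 76.9%, beside 58.7% of all protein-coding genes. Of 75 list genes tested, 58 (77.3%) varied between libraries, beside 59.2% of all genes tested. Of the 62 at 10 CPM or more, 54 (87.1%) varied, beside 77.7% of all genes at that level. The lists were chosen with earlier results known, so these shares describe them and the counts of each list below are read against the same backgrounds. In the list of proteases that cut binding proteins and their inhibitors, 14 of 20 genes were detected, with a median of 7.997 CPM per kilobase over the list. Its highest members were the membrane protease MMP14 (178 ± 16.5 CPM per kilobase), STC1 (95.9 ± 5.44), an inhibitor of PAPPA, and the lysosomal protease CTSD (52.55 ± 3.02). ADAM12, which cuts IGFBP3 and IGFBP5, varied most in log2 CPM among those detected, at 1.535 ± 0.353 CPM, and KLK3 had 0 counts. Of 15 tested, 13 varied.

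Some proteases had high levels beside substrates with low ones, and these genes were picked after their values were seen. PAPPA, which cuts IGFBP4, had 186.3, 151.7, 177.6 and 207.3 CPM in replicates 1 to 4, or 15.6 ± 1.99 CPM per kilobase, where IGFBP4 had 0.103 ± 0.0439. PAPPA2, which cuts IGFBP3 and IGFBP5, stood at 8.55 ± 0.275 CPM per kilobase. STC2, the second stanniocalcin inhibitor, had 23.9 ± 1.61, and HTRA1, a secreted serine protease, 33.6 ± 2.83 CPM per kilobase. In mean level per kilobase PAPPA, STC2 and HTRA1 lay above every binding protein but IGFBP7, though PAPPA and IGFBP6 (15.0 ± 2.26) did not differ beyond their spread. PAPPA2 lay below IGFBP7 and IGFBP6 and above the other binding proteins.

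Relatives of the binding proteins that share their amino-terminal domain ranged widely in level. In a list of 13 such genes and of ternary complex partners, 6 were detected and 4 of 8 tested varied. CCN2 (181 ± 13.7), CCN1 (159 ± 7.05), both matricellular proteins, and the membrane protein CRIM1 (65.0 ± 3.43 CPM per kilobase) led it. IGFBPL1 was lowest, with 2 counts in all. KAZALD1, at 3.66 ± 0.46 CPM, had the largest SD of log2 CPM of those detected. It was not called varying (chi-square adjusted p = 0.0966). IGFALS, the liver-made subunit that joins IGFBP3 and the ligand in blood, was named after its values were seen and had 15 counts in all.

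**Figure D4:**
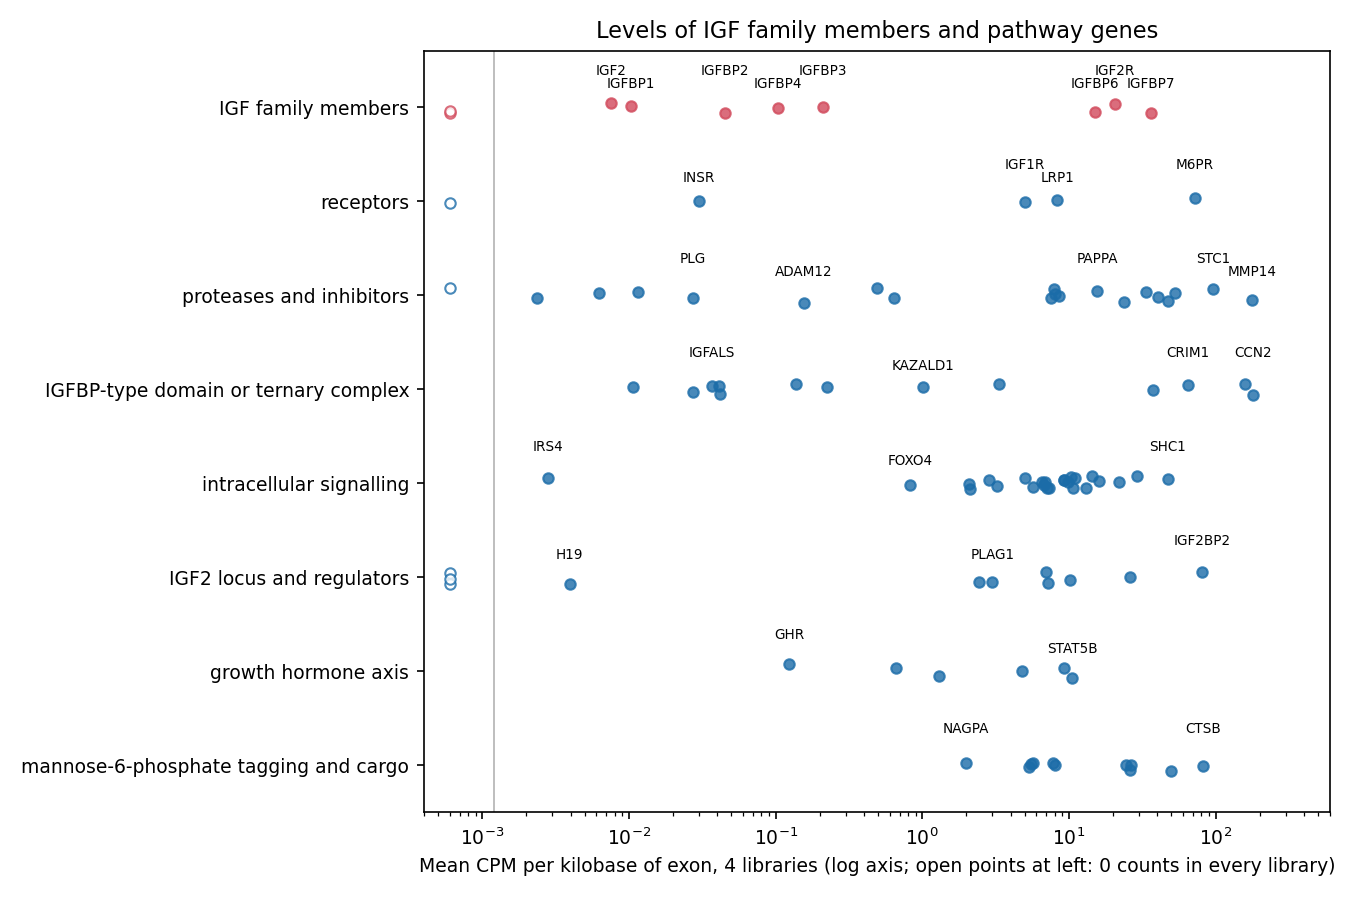
Each point is a gene's mean CPM per kilobase of exon over the 4 libraries (log axis), for the 10 family members (top row) and the 7 pathway lists; open points at the left had 0 counts in every library. Members fall into an upper set of 3 genes (IGFBP7 at 36.3, IGF2R at 20.6 and IGFBP6 at 15.0) and a lower set at 0.211 or less.

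Genes that act inside the cell after receptor activation were detected in 24 of 25 cases, beside 58.7% of protein-coding genes. Of 24 tested, 21 varied, beside 59.2% of all genes tested. The background of 77.7% at 10 CPM or more does not cover GRB14 (6.18 CPM) and FOXO4, which were tested too. The adaptor SHC1 (47.2 ± 2.90), the GTPase RHEB (29.2 ± 2.65) and the kinase regulatory subunit PIK3R2 (22.0 ± 1.63 CPM per kilobase) led the list. FOXO4 had the largest SD of log2 CPM of those detected, at 2.86 ± 0.414 CPM. It was not among the genes called varying (chi-square adjusted p = 0.086). IRS4 had 2 counts in all. The docking proteins IRS1 and IRS2, named after their values were seen, had 10.7 ± 0.745 and 5.68 ± 0.238 CPM per kilobase.

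Regulators known to act on IGF2 were expressed although IGF2 was near 0. In the list of the IGF2 locus and its regulators 7 of 11 genes were detected, and the 4 others were H19, INS, INS-IGF2 and IGF2-AS. The mRNA-binding proteins IGF2BP2 (81.3 ± 3.50) and IGF2BP3 (10.2 ± 0.518) and the chromatin protein HMGA2 (26.25 ± 1.39 CPM per kilobase) were highest. PLAG1, a transcription factor known to activate IGF2 promoters, had the largest SD of log2 CPM of those detected and stood at 23.5 ± 1.29 CPM. Of 7 tested, 4 varied.

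In the growth hormone axis 5 of 6 genes were detected and 5 of 6 tested varied. The receptor GHR lay just under the threshold, at 0.989, 0.902, 0.751 and 0.639 CPM in replicates 1 to 4. The kinase JAK2 had 29.45 ± 2.45 CPM, the transcription factors STAT5B 68.0 ± 3.42 and STAT5A 3.82 ± 0.727, and the feedback inhibitors SOCS3 25.3 ± 2.19 and SOCS2 8.83 ± 0.881 CPM.

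All 11 listed genes of mannose-6-phosphate tagging and of IGF2R cargo, the route that IGF2R serves inside the cell, were detected. Of them 8 varied, where 77.7% of all genes at 10 CPM or more did. The lysosomal protease CTSB (82.4 ± 3.18) and the growth factor TGFB1 (49.5 ± 2.02 CPM per kilobase), whose latent form binds IGF2R, were highest. GNPTG, a subunit of the enzyme that starts the tag, had the largest SD of log2 CPM, at 23.3 ± 1.68 CPM. The enzyme that uncovers the tag, NAGPA, was lowest, at 1.98 ± 0.0845 CPM per kilobase.

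By root mean square difference of log2 CPM over the 4 libraries, the genes most like IGF2R were ANPEP (0.02), PLXNA1 (0.06) and SPARC (0.07). Their means were 364.5, 380.1 and 380.9 CPM. All genes share the same 4 libraries and their depth, so this describes level and spread only.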

How the data were processed

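Per the labels' protocols, total RNA from frozen pellets of KDAC8 knockout HT1080 cells was depleted of ribosomal RNA and sequenced. The submitters' processing notes name Trimmomatic 0.39, Bowtie2 2.5.4, RSEM 1.3.3, DESeq2 1.46.0 and GRCh38; no source used here gives the annotation release, strand setting or filters. The authors deposited expected counts per gene, not scaled between libraries, of which 10.6% to 11.9% are not whole. An expected count can divide a read between overlapping or similar genes. They were rounded.

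CPM used edgeR 4.0.16 TMM effective library sizes. Positions and lengths came from GENCODE 29 (94.0% of IDs matched), and start windows from RefSeq. Detection needed 1 CPM in every library. Variation was tested by chi-square of homogeneity (3 degrees of freedom) on the 16790 genes averaging at least 10 counts (Benjamini-Hochberg adjusted p under 0.05). Pairs with counts in every library were compared within libraries by exact sign-flip permutation, and pairs without were pooled. The chi-square and negative binomial tests were also run on simulated counts, with outcomes not given here.

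The members and lists were chosen with earlier results of these data known. Named were all members and, per list, the 3 highest and the lowest per kilobase and the detected gene with the largest SD of log2 CPM. For lists of 6 or fewer all genes were named. The result of 1 gene that this rule names is not reported here. The CpG windows, length classes and exon overlaps were chosen after the data were seen. Alternatives were DESeq2 1.42.0 size factors, total counts, other filters, thresholds and lengths, a pseudocount, a negative binomial deviance, and leaving out each library.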

Additional observations from a re-analysis of the deposited data

Results flagged for a closer look

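Of 63 genes, 6 had a single library that stood apart from the other 3 by Dixon's 95% criterion for the gap to the nearest sample over the range, which chance alone passes in about 1 of 20 groups. None was a family member. CRIM1 was at 427 CPM in replicate 2, below 472 to 479 CPM in the others. HELLPAR, which overlaps IGF1, was at 477 CPM in replicate 4, above 222 to 262 CPM in the others. For a row with counts in 1 library and 0 in the others, the gap is the whole range, so it passes whatever its count. The chance rate does not apply to such a row. That was so for 4 of the 6, with 1 to 4 counts. These were IRS4 at 0.0442 CPM in replicate 3, LINC02456, which overlaps IGF1, at 0.0475 CPM in replicate 2, UBE2CP3, inside IGFBP7, at 0.0946 CPM in replicate 4, and IGFBP7-AS1 at 0.0247 CPM in replicate 1.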

How the results depend on the processing

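The 213 alternative values cover 30 results. Of the 141 for levels, shares and counts, 132 lay within the replicate SD or 1.5 times of the main count, and the other 9 came with another test or length. Levels and shares without 1 library had little room to fail, since dropping 1 of 4 values moves a mean by less than the SD. IGF1 and IGFBP5 were at 0 in every setting. The 132 are thus a weak measure of stability. Of the 72 for log2 ratios, 69 kept the direction, but 24 of the 72 differed from the main value by more than its SD, with another length or a pseudocount of 0.1 CPM per kilobase. Ratios without 1 library were bound to keep the direction, because every pair had the same sign in all 4 libraries. Dropping 1 of 4 values also cannot move a mean ratio by more than the SD. Under the negative binomial deviance, which asks for more spread than that of a typical gene, members varying went to 0 and all genes varying to 722. Without length correction the log2 ratio of IGFBP7 to IGF2R reversed to -2.39 and that of IGF2R to M6PR to 0.42. With median coding transcript lengths IGFBP4 over IGFBP2 reversed to -1.40. Shares of the binding protein sum moved without length correction to 76.4% for IGFBP7, 22.1% for IGFBP6, 1.05% for IGFBP3 and 0.232% for IGFBP2. With median coding lengths they moved to 1.32% for IGFBP3 and 0.355% for IGFBP2, and with the longest transcript to 0.5996% for IGFBP3. In the 4 runs that each left out 1 library, IGF2R, IGFBP6 and IGFBP7 varied in every run. A threshold of 0.5 CPM gave 4 members detected. No paired analysis was possible because there is only 1 group. Depth limits IGF1, IGF2, IGFBP1, IGFBP2, IGFBP4 and IGFBP5, which had 39 counts or fewer over the 4 libraries.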

Other observations

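Rows that are antisense to or inside other genes were higher in replicate 4. Over 1115 antisense and sense intronic rows with a mean of 10 or more counts, the median deviation from the row's mean was 0.20 log2 units in replicate 4, against -0.02, -0.10 and -0.03 in replicates 1 to 3. Among rows that overlap members, HELLPAR and AL353625.1 were also highest there, while AIRN (0.470 CPM) and IGFBP7-AS1 (0.0247 CPM) were highest in replicate 1.

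The IGF2R start window shown above held 3 copies of the E-box CACGTG, which reads the same on both strands. Of the 35114 windows in the RefSeq table, 7.26% held 1 or more and 0.0940% held 3 or more. The motif was looked for after the sequence was seen, and a match is a description of sequence only.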
